A study of Mus musculus with 12 samples.

Results

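The integrated stress response genes described here are 40 genes that the transcription factor ATF4 is known to control or that serve amino acid synthesis, amino acid transport and tRNA charging. They were taken by gene symbol from the 23446 genes of the deposited expression table; each had at least 10 reads summed over the 12 libraries, so none was dropped. Of the 40, 39 had enough reads for testing, among 12230 tested genes in all, and the one left out was Cbs. The RNA came from C2C12, an established line of mouse myoblasts, the precursor cells of muscle fibres, which divide in growth medium (GM) and leave the cell cycle and fuse in differentiation medium (DM). The 4 groups held 3 libraries each: GM-AA, cells in GM given acetoacetate (AA), a ketone body, for 12 h; GM-PBS, cells in GM given phosphate-buffered saline (PBS), the control, for the same time; DM-AA, cells in DM given AA for 12 h; and DM-PBS, cells in DM given PBS for the same time. The stated purpose was to find genes that respond to AA in proliferating and in differentiating cells. The sources used here do not give the dose or salt of AA, the serum in each medium or the time spent in DM. Whether the libraries within a group were separate cultures is not stated, and the p-values therefore reflect sample-to-sample spread that may be technical.

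ATF4 is a basic leucine zipper (bZIP) factor at the centre of the integrated stress response. When kinases such as GCN2, which senses uncharged tRNA, or PERK, which senses unfolded protein, phosphorylate the initiation factor eIF2, most translation falls while ATF4 mRNA is translated more, and ATF4 then raises genes for amino acid synthesis, uptake and tRNA charging. Growth signals through mTORC1 also raise ATF4 activity. Because much of this control acts on translation and on the protein, the mRNA of Atf4 is not a measure of ATF4 protein, and protein was not measured here.

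Library totals of gene-assigned reads were 8484417 to 8801619 in GM-AA, 8292006 to 8965129 in GM-PBS, 8027518 to 8245402 in DM-AA and 7959519 to 9893564 in DM-PBS. Levels are given as CPM, read counts relative to the TMM-scaled library size. Differences are log2 fold changes with their SE, tested by quasi-likelihood in edgeR over 3 libraries a group, and a gene is said to rise or fall where its Benjamini-Hochberg adjusted p over all tested genes is under 0.05. All 6 myoblast markers had reads in each group, with summed levels of 6973 to 7321 CPM in GM-AA, 7963 to 8415 CPM in GM-PBS, 7422 to 7951 CPM in DM-AA and 8137 to 8358 CPM in DM-PBS. Most of that sum was Vim, which averaged 5010 CPM in GM-AA and 6221 CPM in GM-PBS, and 5214 CPM in DM-AA and 6194 CPM in DM-PBS. Des, Cdh15, Myf5 and Pax7 averaged higher with AA in both media, Des for example at 1694 CPM in GM-AA and 1450 CPM in GM-PBS, and Myod1 averaged lower with AA in GM and higher in DM. The 5 markers of differentiating muscle summed to 83.9 to 112 CPM in GM-AA, 63.9 to 73.6 CPM in GM-PBS, 192 to 243 CPM in DM-AA and 97.3 to 107 CPM in DM-PBS. Each of the 5 averaged higher with AA in both media. Between the media they differed in direction. Myog averaged 70.2 CPM in DM-PBS and 11.8 CPM in GM-PBS, and Tmem8c 9.16 and 5.24 CPM. Acta1 averaged lower in DM-PBS, at 16.9 CPM against 42.7 CPM in GM-PBS, as did Myh3, at 4.48 and 9.03 CPM. Ckm was low in both, at 1.17 CPM in DM-PBS and 1.07 CPM in GM-PBS. The part of these markers in the results below was not tested. Adipocyte, epithelial, immune and endothelial marker lists summed to at most 4.82 CPM in any library, and of the 3 neural markers Snap25 and Elavl4 were at 0 while Tubb3 averaged 291 CPM in GM-AA, 301 CPM in GM-PBS, 268 CPM in DM-AA and 225 CPM in DM-PBS. In bulk RNA, fewer cells of a type and less RNA per cell cannot be told apart.

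In growth medium 16 of the 39 tested genes rose with AA and 4 fell. The risers included Atf4 itself, its relatives Atf5 and Atf3, Psat1 of serine synthesis, the asparagine synthetase gene Asns, the leucine transporter gene Slc7a5 and 4 tRNA synthetase genes. The share that rose was 41.0%, where 9.76% of all tested genes rose; the share that fell was 10.3%, where 11% of all tested genes fell, and 20.7% were called in either direction. The median log2 fold change was 0.15 over the 39 genes and -0.00337 over all tested genes. The GM-AA libraries lay wholly above the GM-PBS libraries for 18 of the 39 genes (16.4% of all tested genes) and wholly below them for 3 (17.6% of all tested genes). A second method, DESeq2's Wald test, called 12 of the genes higher and 3 lower. The count that rose was 10 without GM-AA library 1 and 9 without GM-PBS library 1, and the count that fell was 2 without GM-AA library 2 or without GM-PBS library 1.

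In differentiation medium 12 genes rose and 2 fell. These were 30.8% and 5.13% of the 39, where 12.6% of all tested genes rose, 13.8% fell and 26.4% were called in either direction. The median was 0.07 over the 39 genes and 0.00214 over all tested genes. The DM-AA libraries lay wholly above the DM-PBS libraries for 14 of the 39 genes (19.9% of all tested genes) and wholly below them for 8 (20.2% of all tested genes). The count that rose was 8 without DM-AA library 1, without DM-AA library 3 or without DM-PBS library 3. With each library's trend in GC content and length removed, 4 genes fell in DM. The comparisons in GM and in DM share no library. A set of 9 genes rose in both: Atf4, Atf5, Psat1, Mthfd2, Aldh1l2, Gpt2, Aars, Iars and Nars. This is 23.1% of the 39, where 4.52% of all tested genes rose in both media. Eif4ebp1 and Slc6a9 fell in both, 5.13% of the 39 where 6.44% of all tested genes did. A further 7 genes rose in GM and did not pass in DM, where 5.05% of all tested genes did, and 3 rose in DM and did not pass in GM, where 7.79% did. Mthfd1l and Slc38a2 fell in GM and did not pass in DM, where 4.25% of all tested genes did. The remaining 16 passed in neither direction in either medium, as did 64.3% of all tested genes. Whether the AA effect itself differed is given below, gene by gene.

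**Figure D1:**
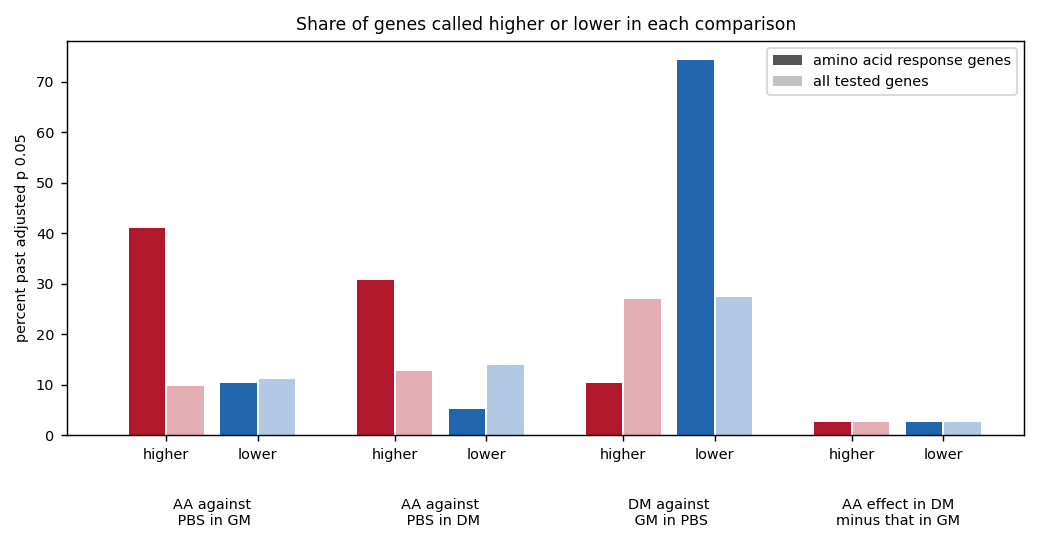
Share of the amino acid response genes (dark bars, 39 tested) and of all tested genes (pale bars, 12230) called higher or lower at an adjusted p under 0.05, in percent, for each comparison. With AA in GM 41.0% of the amino acid response genes were higher, beside 9.76% of all genes, and between media 74.4% were lower in DM, beside 27.4% of all genes.

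A trend with GC content also moved with AA. Across 12144 genes, each library's deviation from the gene mean correlated with transcript GC content with a Spearman's rho of -0.177 to -0.114 in GM-AA, 0.00536 to 0.211 in GM-PBS, -0.148 to -0.0612 in DM-AA and 0.127 to 0.150 in DM-PBS. The GM extremes were GM-AA library 1 at -0.177 and GM-PBS library 1 at 0.211, the other GM-PBS libraries being at 0.00536 and 0.0308. Leaving out either of these library 1s gave the lowest counts of risers in GM. A link between the GC trend and those counts was not tested. The median GC content was 52.2% in the 39 genes and 49.7% in all tested genes, and the fold changes with AA fell with GC content across genes (rho = -0.274 in GM and -0.266 in DM). With the trend removed in each library, 19 of the genes rose and 3 fell in GM, and 14 rose and 4 fell in DM.

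ATF4 acts together with C/EBP factors at composite elements of the form TGATGNAA. Stretches are printed only for the genes that rose in GM and hold a match, so the printed set was picked by its outcome and does not link the element to the rise. RefSeq promoters on GRCm38.p6, running from 250 bases before to 50 bases after a start site, were found for 33 of the 40 genes. The element, read as TGATGNAA or its reverse complement TTNCATCA on either strand, was present in 10 of the 33, or 30.3%, and in 4.51% of the 27025 genes of the promoter table. The 40 genes include known ATF4 targets, so this contrast may follow from how they were chosen. The promoters that hold the element are those of Atf3, Nupr1, Trib3, Chac1, Asns, Pycr1, Slc1a4, Aars, Gars and Iars. Of these, Nupr1, Pycr1, Slc1a4 and Gars did not pass in GM and are not printed. Each stretch below runs 5′ to 3′ along the gene's own strand with the match in capitals, and positions count from 0 at the start site.
Atf3, chr1:191183411-191183468 (minus strand): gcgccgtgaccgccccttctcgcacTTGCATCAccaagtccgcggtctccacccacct
Trib3, chr2:152344031-152344071 (minus strand): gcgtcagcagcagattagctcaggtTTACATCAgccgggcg
Chac1, chr2:119351024-119351081 (plus strand): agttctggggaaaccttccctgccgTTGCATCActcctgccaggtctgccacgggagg
Asns, chr6:7693200-7693257 (minus strand): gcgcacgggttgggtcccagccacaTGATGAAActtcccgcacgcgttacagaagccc
Aars upstream, chr8:111033705-111033762 (plus strand): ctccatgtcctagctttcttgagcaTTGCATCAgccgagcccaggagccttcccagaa
Aars downstream, chr8:111033826-111033871 (plus strand): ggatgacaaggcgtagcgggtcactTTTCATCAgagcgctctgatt
Iars, chr13:49682112-49682159 (plus strand): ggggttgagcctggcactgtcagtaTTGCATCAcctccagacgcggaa

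These elements lay on either side of the start site: at -193, -112, -110 and -23 in Chac1, Aars, Atf3 and Asns, and at 7, 9 and 14 in Iars, Aars and Trib3. Of the 10 genes with a match, 6 rose with AA in GM, with a median log2 fold change of 0.21. Of the 22 tested genes whose promoters lacked one, 7 rose, with a median of 0.09, where 9.76% of all tested genes rose. In DM 2 of the 10 and 8 of the 22 rose, with medians of 0.02 and 0.08, where 12.6% of all tested genes rose. The order of the 2 sets differed between the media, and the contrast between them was not tested. A match is a run of letters and not a measured binding site. Atf4 and Atf5 rose in both media without a match in this window.

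Among the transcription factors, 3 of 5 rose with AA in GM and 2 of 5 in DM, and none passed as lower in either medium at an adjusted p (0 in GM and 2 in DM at an unadjusted p under 0.05, and 0 in GM and 0 in DM by DESeq2). Shares over all tested genes were 9.76% higher and 11% lower in GM, and 12.6% and 13.8% in DM. The counts of single roles, here and below, were not tested against these shares. Atf4, the factor that names the pathway, had 366, 332 and 375 CPM in GM-AA, against 269, 280.4 and 265 CPM in GM-PBS. In DM it had 316, 344 and 336 CPM in DM-AA, against 278, 277 and 267 CPM in DM-PBS. Every AA library lay above every PBS library of its medium. The log2 fold change was 0.40 ± 0.049 in GM (adjusted p = 2.08e-07) and 0.28 ± 0.049 in DM (adjusted p = 5.81e-05), and the call was kept under each of the alternatives run in both media.

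Atf5, a close relative of Atf4 that is also under translational control, had 163, 168 and 158 CPM in GM-AA, against 131, 129.7 and 132 CPM in GM-PBS. The DM values were 93.1, 102 and 100.4 CPM in DM-AA, against 72.4, 76 and 72.7 CPM in DM-PBS. The groups did not overlap in either medium. Atf5 rose by 0.32 ± 0.047 in GM (adjusted p = 7.07e-06) and 0.42 ± 0.054 in DM (adjusted p = 2.22e-07).

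Atf3, an early stress-induced repressor, had 20.6, 16.7 and 15.3 CPM in GM-AA, against 12.8, 13.8 and 13.7 CPM in GM-PBS. The 3 GM-AA values were the highest of the 12 libraries. Its DM levels were 11.5, 8.32 and 8.01 CPM in DM-AA, against 9.05, 8.01 and 9.54 CPM in DM-PBS, and those groups overlapped. Atf3 rose in GM by 0.38 ± 0.12 (adjusted p = 0.0233), a call that was lost with DESeq2's Wald test (adjusted p = 0.075), and when GM-AA library 1 or GM-PBS library 1 was left out (adjusted p = 0.20 and 0.085). In DM the log2 fold change was 0.06 ± 0.15 (adjusted p = 0.799).

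Ddit3, which encodes the pro-apoptotic factor CHOP, had 47.7, 42.5 and 35.8 CPM in GM-AA, against 41.8, 36 and 36.8 CPM in GM-PBS. The groups overlapped. In DM, at 18.4, 22.5 and 22.7 CPM in DM-AA, against 23.5, 25.3 and 26.2 CPM in DM-PBS, the 3 DM-AA values were all lower. Neither difference passed: 0.14 ± 0.088 in GM (adjusted p = 0.296) and -0.23 ± 0.11 in DM (adjusted p = 0.111), although the DM value passed after removal of the GC and length trend (adjusted p = 0.0416). Nupr1, a small stress-induced chromatin protein, had 36.5, 40.6 and 34.5 CPM in GM-AA, against 36.5, 44.8 and 36.4 CPM in GM-PBS, with overlapping groups. In differentiation medium it had 54.2, 53 and 53.4 CPM in DM-AA, against 57.1, 57.5 and 64.1 CPM in DM-PBS, with each DM-AA library below each DM-PBS library. Its log2 fold changes were -0.07 ± 0.081 in GM (adjusted p = 0.568) and -0.15 ± 0.072 in DM (adjusted p = 0.124), and the DM value passed after removal of the GC and length trend (adjusted p = 0.0499).

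**Figure D2:**
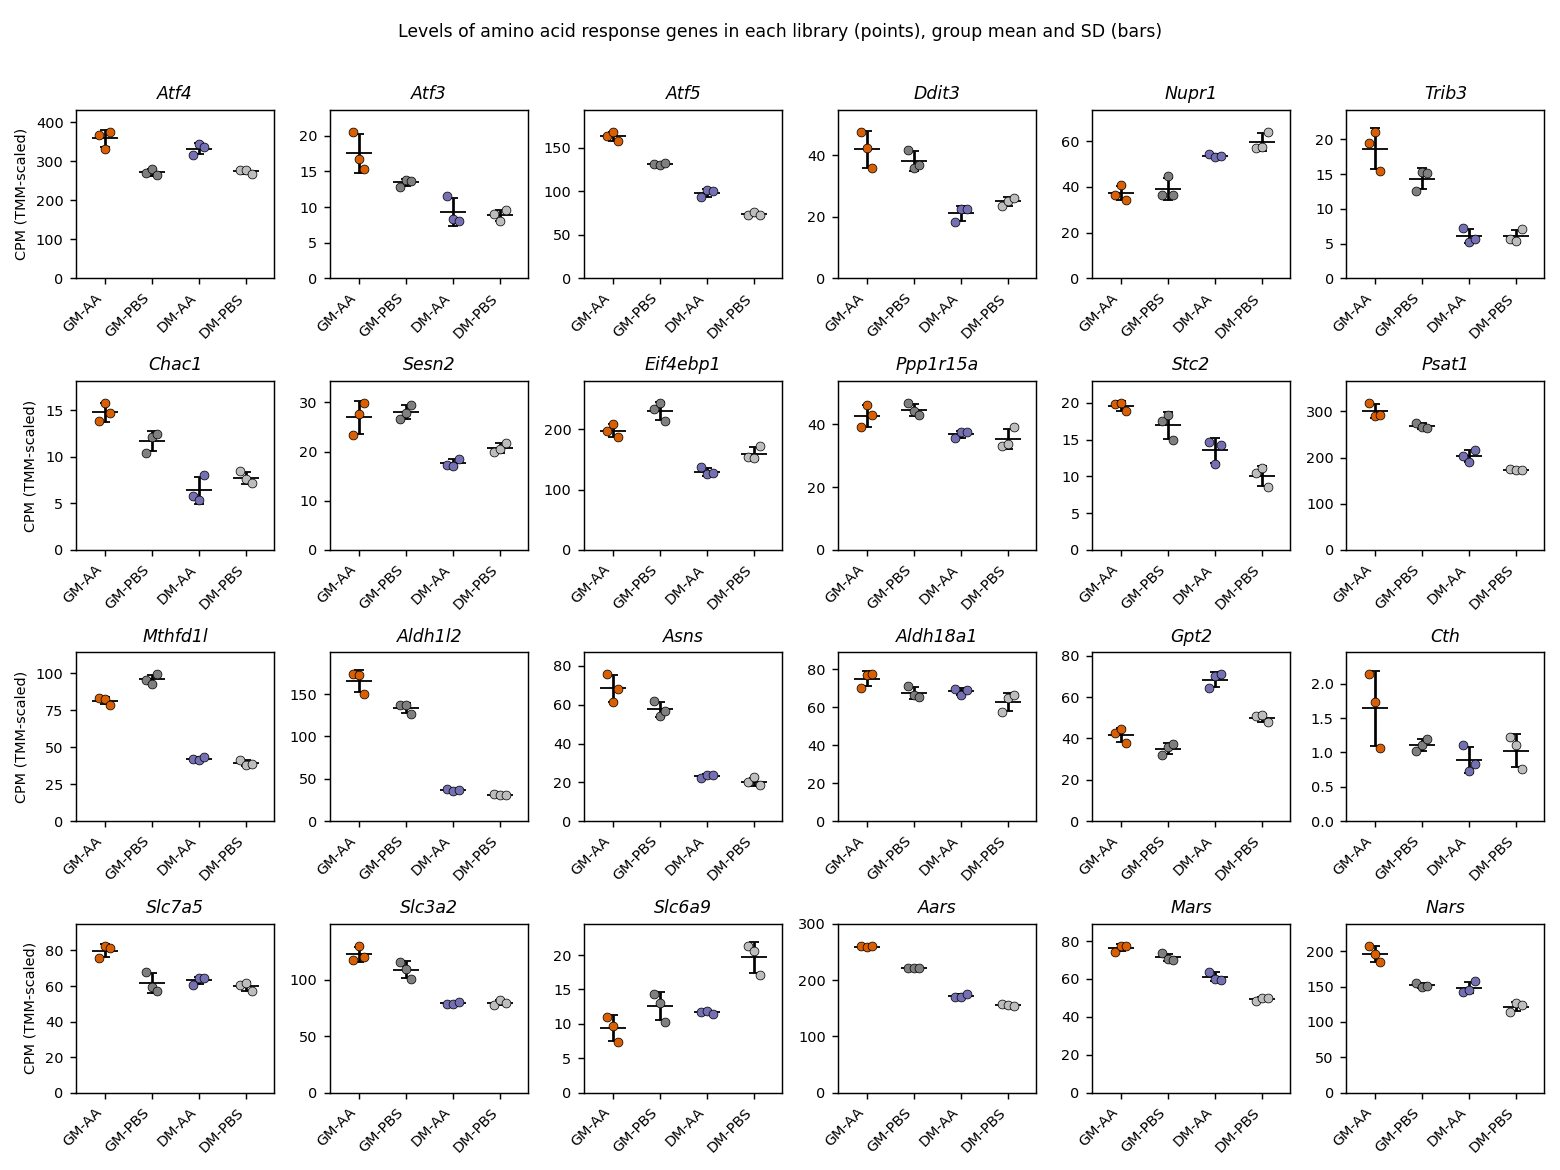
Level in CPM (TMM-scaled, linear axes from 0) of the 24 genes described library by library, in GM-AA, GM-PBS, DM-AA and DM-PBS; points are libraries and bars the group mean and SD (n = 3). Atf4 is higher with AA in both media, and Aldh1l2, Asns and Trib3 are far lower in both DM groups than in both GM groups.

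Among genes that feed back on the response or carry its signal, 2 of 6 rose and 1 fell in GM (9.76% and 11% of all tested genes). In DM 1 rose and 1 fell (12.6% and 13.8% of all tested genes). Trib3, a pseudokinase that binds and restrains ATF4 and AKT, had 19.6, 21.1 and 15.4 CPM in GM-AA, against 12.6, 15.3 and 15.2 CPM in GM-PBS. The lowest GM-AA value, 15.4 CPM, stood just above the highest GM-PBS value, 15.3 CPM. Trib3 rose in GM by 0.39 ± 0.12 (adjusted p = 0.021), a call lost with DESeq2's Wald test (adjusted p = 0.0795), and when GM-AA library 1, GM-AA library 2 or GM-PBS library 1 was left out (adjusted p = 0.0694, 0.138 and 0.128). In DM, where it had 7.24, 5.26 and 5.74 CPM in DM-AA, against 5.7, 5.42 and 7.15 CPM in DM-PBS, the groups overlapped and the log2 fold change was 0.00 ± 0.18 (adjusted p = 0.993).

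Chac1, a glutathione-degrading enzyme and a sensitive ATF4 target, had 13.8, 15.8 and 14.7 CPM in GM-AA, against 10.5, 12.1 and 12.5 CPM in GM-PBS. The groups did not overlap. DM libraries gave 5.77, 5.38 and 8.01 CPM in DM-AA, against 8.44, 7.64 and 7.15 CPM in DM-PBS, with overlap. Chac1 rose in GM by 0.34 ± 0.12 (adjusted p = 0.0463), but the call was lost with DESeq2's Wald test (adjusted p = 0.149), and when GM-AA library 2, GM-AA library 3, GM-PBS library 1, GM-PBS library 2 or GM-PBS library 3 was left out (adjusted p = 0.157, 0.0924, 0.198, 0.0624 and 0.0516). In DM its log2 fold change was -0.28 ± 0.16 (adjusted p = 0.201).

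Sesn2, a leucine sensor that restrains mTORC1, had 23.4, 27.6 and 29.9 CPM in GM-AA, against 26.6, 27.9 and 29.5 CPM in GM-PBS, with overlapping groups. In DM the levels were 17.3, 17 and 18.5 CPM in DM-AA, against 19.8, 20.6 and 21.8 CPM in DM-PBS, and there the 3 DM-AA values were the lowest of all. Neither difference passed: -0.05 ± 0.089 in GM (adjusted p = 0.719) and -0.23 ± 0.10 in DM (adjusted p = 0.0909). Ppp1r15a, or GADD34, the inducible subunit that directs a phosphatase to eIF2 and so ends the response, had 39, 46.1 and 42.8 CPM in GM-AA, against 46.7, 44.1 and 42.8 CPM in GM-PBS. The values in DM were 35.5, 37.4 and 37.5 CPM in DM-AA, against 33, 33.8 and 39 CPM in DM-PBS. Both pairs of groups overlapped, with log2 fold changes of -0.06 ± 0.074 in GM (adjusted p = 0.593) and 0.07 ± 0.079 in DM (adjusted p = 0.58).

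Eif4ebp1, or 4E-BP1, the translational repressor that mTORC1 inactivates, had 198, 208 and 186 CPM in GM-AA, against 233, 243 and 214 CPM in GM-PBS. In DM it had 137, 125 and 127 CPM in DM-AA, against 154, 153 and 173 CPM in DM-PBS. Each AA library lay below each PBS library of its medium. Eif4ebp1 fell by 0.22 ± 0.055 in GM (adjusted p = 0.00385) and 0.30 ± 0.059 in DM (adjusted p = 0.000186), the opposite direction to Atf4 in each. Stc2, a secreted glycoprotein induced by stress, had 19.9, 20.0 and 18.8 CPM in GM-AA, against 17.5, 18.4 and 14.9 CPM in GM-PBS. The DM values were 14.7, 11.6 and 14.2 CPM in DM-AA, against 10.5, 11.1 and 8.53 CPM in DM-PBS. The AA libraries lay above the PBS libraries in both media; the DM difference passed, at 0.43 ± 0.13 (adjusted p = 0.0127), and the GM one, at 0.21 ± 0.11 (adjusted p = 0.174), did not. The difference between these 2 effects did not pass (adjusted p = 0.575). The DM call was lost when DM-AA library 1, DM-AA library 3 or DM-PBS library 3 was left out (adjusted p = 0.0663, 0.0602 and 0.0802).

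Serine and one-carbon enzymes make serine from a glycolytic intermediate and pass its carbon into mitochondrial folate. In GM 3 of 7 rose and 1 fell, where 9.76% of all tested genes rose and 11% fell. In DM 3 rose and none passed as lower (0 at an unadjusted p under 0.05 and 0 by DESeq2), where 12.6% of all tested genes rose and 13.8% fell. Psat1, the aminotransferase of serine synthesis, had 318, 291 and 292 CPM in GM-AA, against 276, 266 and 264 CPM in GM-PBS. Its DM levels were 203, 191 and 216 CPM in DM-AA, against 174, 174 and 174 CPM in DM-PBS, the DM-PBS libraries lying very close together. Its groups did not overlap in either medium. Psat1 rose by 0.16 ± 0.048 in GM (adjusted p = 0.016) and 0.22 ± 0.051 in DM (adjusted p = 0.0011); the GM call was lost when GM-AA library 1 or GM-PBS library 3 was left out (adjusted p = 0.112 and 0.0634).

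Aldh1l2, which oxidises mitochondrial formyl-folate, had 173, 173 and 150.3 CPM in GM-AA, against 137, 137 and 127 CPM in GM-PBS. In differentiation medium it had 38.3, 35.9 and 37.1 CPM in DM-AA, against 32.6, 30.4 and 30.6 CPM in DM-PBS. Its groups did not overlap in either medium, and it rose by 0.31 ± 0.053 in GM (adjusted p = 4.75e-05) and 0.24 ± 0.079 in DM (adjusted p = 0.0204). The DM call was lost when DM-AA library 1, DM-AA library 3, DM-PBS library 2 or DM-PBS library 3 was left out (adjusted p = 0.0722, 0.0546, 0.0673 and 0.0591). Exons of D10Wsu102e on the opposite strand cover 14.1% of Aldh1l2, and since use of strand in counting is not given, reads from the pair cannot be told apart. Mthfd2, the mitochondrial methylene-folate enzyme, ranged over 48.1 to 50.8 CPM in GM-AA and 38.9 to 44.1 CPM in GM-PBS, and over 28.8 to 31.5 CPM in DM-AA and 23.7 to 26.5 CPM in DM-PBS. It rose by 0.24 ± 0.069 in GM (adjusted p = 0.012) and 0.26 ± 0.081 in DM (adjusted p = 0.0172). The GM call was lost when GM-PBS library 1 was left out (adjusted p = 0.085) and the DM call when DM-AA library 1 or DM-PBS library 3 was left out (adjusted p = 0.0706 and 0.0759).

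Mthfd1l, which releases formate from mitochondrial formyl-folate, had 83, 82.3 and 78.5 CPM in GM-AA, against 95.2, 92.9 and 99.1 CPM in GM-PBS. Every GM-AA value lay below every GM-PBS value. DM libraries gave 41.7, 41.5 and 43.4 CPM in DM-AA, against 41.3, 37.8 and 38.6 CPM in DM-PBS, and here every DM-AA value lay above every DM-PBS value, the closest pair by a narrow margin. Mthfd1l fell in GM by 0.24 ± 0.053 (adjusted p = 0.00136), while the DM difference of 0.10 ± 0.067 did not pass (adjusted p = 0.284). Phgdh, the first enzyme of serine synthesis, Psph, its last, and Shmt2, which splits serine in mitochondria, passed in neither medium, with log2 fold changes of -0.05, 0.06 and 0.06 in GM and 0.07, -0.10 and 0.09 in DM. Shmt2 passed as higher after removal of the GC and length trend, in GM (adjusted p = 0.0484) and in DM (adjusted p = 0.00971). Phgdh has 8 processed pseudogenes of at least 95% identity over at least 30% of its transcript, so its level is uncertain, and Cct6a exons on the opposite strand cover 10.4% of Psph.

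Of the enzymes that make asparagine, proline, alanine and cysteine, 2 of 5 tested rose in GM and 1 in DM, and none passed as lower in either medium (0 in GM and 0 in DM at an unadjusted p under 0.05, and 0 and 0 by DESeq2). All-gene shares were 9.76% higher and 11% lower in GM, and 12.6% and 13.8% in DM. Asns, asparagine synthetase, had 75.7, 61.5 and 68.2 CPM in GM-AA, against 62, 54.3 and 56.6 CPM in GM-PBS. GM-AA library 2 lay within the range of GM-PBS and the other two lay above it. In DM the levels were 22.4, 23.7 and 24 CPM in DM-AA, against 20.0, 22.5 and 18.4 CPM in DM-PBS, where the lowest DM-AA value fell just under the highest DM-PBS value. Asns rose in GM by 0.25 ± 0.071 (adjusted p = 0.0112), a call lost when GM-AA library 1 or GM-PBS library 2 was left out (adjusted p = 0.117 and 0.0589). The DM difference was 0.20 ± 0.10 (adjusted p = 0.141).

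Gpt2, the mitochondrial alanine aminotransferase, had 42.5, 44.5 and 37.9 CPM in GM-AA, against 32.2, 35.7 and 37.2 CPM in GM-PBS. The values in DM were 64.3, 70.1 and 71 CPM in DM-AA, against 51, 51.1 and 47.9 CPM in DM-PBS, DM-AA being the highest of the 4 groups. The AA libraries lay above the PBS libraries in both media. Gpt2 rose by 0.25 ± 0.076 in GM (adjusted p = 0.0168) and 0.45 ± 0.067 in DM (adjusted p = 3.03e-06), and the GM call was lost when GM-AA library 1, GM-AA library 2 or GM-PBS library 1 was left out (adjusted p = 0.0519, 0.101 and 0.109). Aldh18a1, the first enzyme of proline synthesis, had 70.4, 77.1 and 77.3 CPM in GM-AA, against 71, 66.2 and 65.3 CPM in GM-PBS, and in DM 69.4, 66.3 and 69.2 CPM in DM-AA, against 57.6, 65.1 and 66.4 CPM in DM-PBS. Its groups overlapped in both media and neither 0.15 ± 0.061 in GM (adjusted p = 0.0792) nor 0.12 ± 0.063 in DM (adjusted p = 0.154) passed. The GM difference passed with totals of assigned reads as the only scaling and after removal of the GC and length trend (adjusted p = 0.0347 and 0.0248), and when GM-AA library 1 was left out (adjusted p = 0.0371). The DM difference passed after removal of the GC and length trend (adjusted p = 0.0338).

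Cth, the enzyme that releases cysteine from cystathionine, was near the lower limit, with 2.14, 1.74 and 1.06 CPM in GM-AA, against 1.02, 1.1 and 1.2 CPM in GM-PBS. In DM it had 1.1, 0.734 and 0.837 CPM in DM-AA, against 1.22, 1.11 and 0.753 CPM in DM-PBS. These groups overlapped, and the log2 fold changes of 0.57 ± 0.33 and -0.22 ± 0.39 had 95% intervals of -0.11 to 1.25 and -1.03 to 0.58, too wide to show a difference of the size seen in Atf4. Pycr1, the last enzyme of proline synthesis, stood at 3.48 to 7.78 CPM over all 12 libraries and passed in neither medium. Cbs, which makes cystathionine, had at most 0.612 CPM in any library and was not tested.

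**Figure D3:**
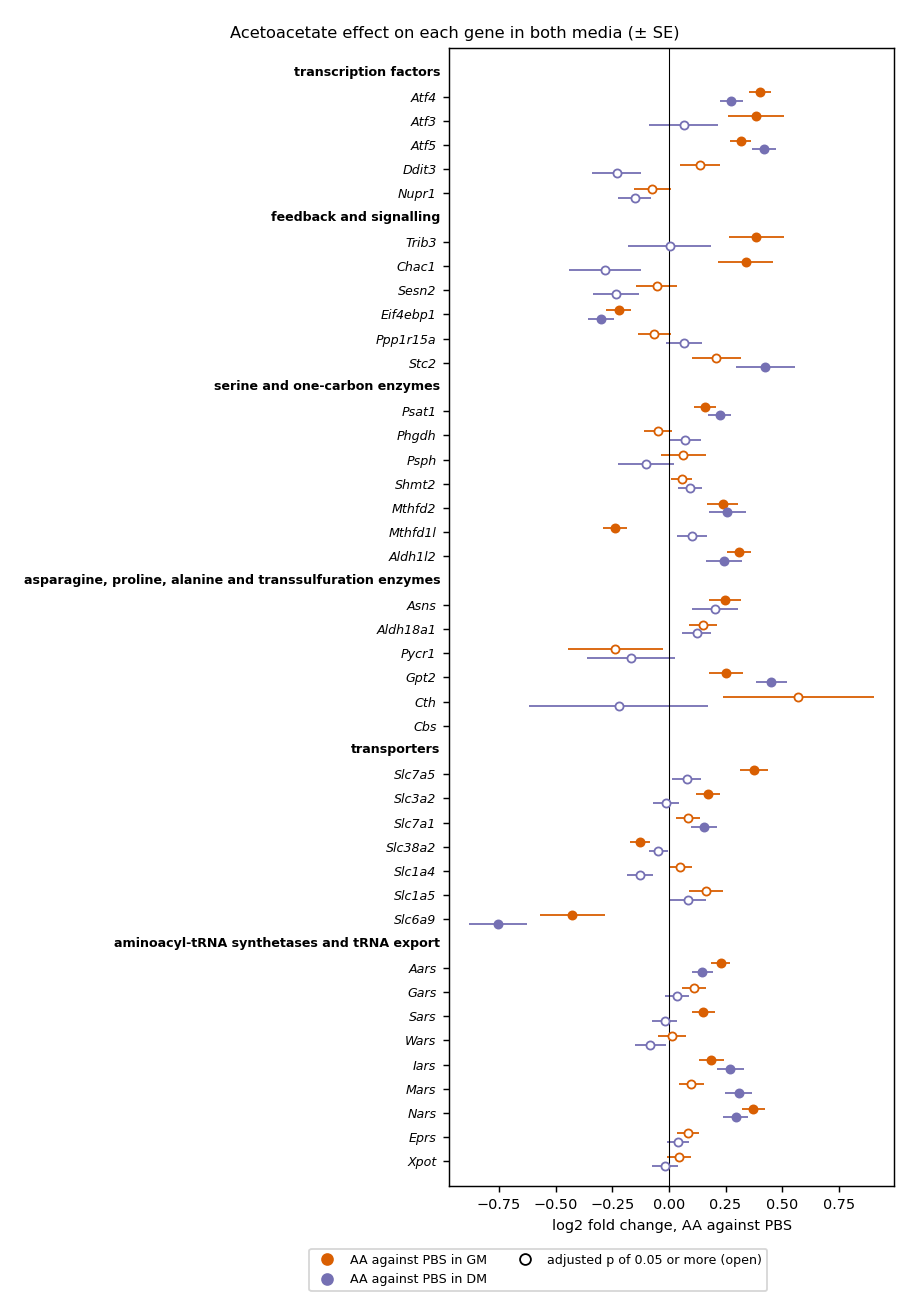
Log2 fold change ± SE with AA in GM (orange) and in DM (purple) for each tested gene, grouped by role; filled points have an adjusted p under 0.05. Atf4 stands at 0.40 in GM and 0.28 in DM, Slc6a9 is the lowest in DM at -0.75, and Mthfd1l lies on opposite sides of 0 in the 2 media.

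Of the transporters, 2 of 7 rose and 2 fell in GM, where 9.76% of all tested genes rose and 11% fell. In DM 1 rose and 1 fell, where 12.6% and 13.8% of all tested genes did. Slc7a5, or LAT1, the light chain that carries leucine into the cell, had 75.9, 82.7 and 81.2 CPM in GM-AA, against 67.8, 59.6 and 57 CPM in GM-PBS. All GM-AA libraries lay above the GM-PBS libraries. The DM values were 60.7, 64.2 and 64.5 CPM in DM-AA, against 60.6, 61.7 and 57.1 CPM in DM-PBS, with overlapping groups. Slc7a5 rose in GM by 0.38 ± 0.062 (adjusted p = 3.09e-05), and the DM difference of 0.08 ± 0.065 did not pass (adjusted p = 0.411). Slc3a2, the heavy chain that pairs with Slc7a5 in the membrane, had 118, 130.3 and 120.1 CPM in GM-AA, against 116, 109 and 101 CPM in GM-PBS. Its GM groups did not overlap, but its DM groups did, at 78.9, 78.4 and 80.0 CPM in DM-AA, against 78, 82.3 and 79.3 CPM in DM-PBS. Slc3a2 rose in GM by 0.17 ± 0.053 (adjusted p = 0.0186), a call lost when GM-AA library 2 or GM-PBS library 3 was left out (adjusted p = 0.13 and 0.142). Its DM value was -0.01 ± 0.059 (adjusted p = 0.901).

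Slc6a9, or GLYT1, the glycine carrier, had 11, 9.75 and 7.3 CPM in GM-AA, against 14.3, 13.1 and 10.3 CPM in GM-PBS. In GM a GM-AA library lay above the lowest GM-PBS library. Its DM levels were 11.8, 11.9 and 11.5 CPM in DM-AA, against 21.4, 20.6 and 17.1 CPM in DM-PBS, with every DM-AA library well below every DM-PBS library. Slc6a9 fell by 0.43 ± 0.14 in GM (adjusted p = 0.0312) and 0.75 ± 0.13 in DM (adjusted p = 2.28e-05), and the DM value was the largest AA difference of the 39 genes in either medium. The GM call was lost with DESeq2's Wald test and after removal of the GC and length trend (adjusted p = 0.064 and 0.0686), and when GM-AA library 2, GM-AA library 3, GM-PBS library 1 or GM-PBS library 2 was left out (adjusted p = 0.0523, 0.211, 0.198 and 0.0868). Exons of B4galt2, Ccdc24 and Gm17114 on the opposite strand cover 30.2% of Slc6a9, so its reads may include theirs.

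Slc7a1, the cationic amino acid carrier, ranged over 121 to 135 CPM in GM-AA and 118 to 126 CPM in GM-PBS, and over 76.4 to 79.7 CPM in DM-AA and 66.4 to 73.6 CPM in DM-PBS. It rose in DM by 0.16 ± 0.059 (adjusted p = 0.0476), a call lost with DESeq2's Wald test (adjusted p = 0.092), and when DM-AA library 1, DM-AA library 2, DM-AA library 3, DM-PBS library 2 or DM-PBS library 3 was left out (adjusted p = 0.112, 0.124, 0.062, 0.0805 and 0.187). Slc38a2, or SNAT2, a glutamine and alanine carrier that amino acid shortage is known to raise, ranged over 584 to 632 CPM in GM-AA and 653 to 676 CPM in GM-PBS. It fell in GM by 0.13 ± 0.043 (adjusted p = 0.0317), a call lost with totals of assigned reads as the only scaling and with only the compared groups in the fit (adjusted p = 0.0945 and 0.0724), and when GM-AA library 1, GM-AA library 2, GM-PBS library 1 or GM-PBS library 3 was left out (adjusted p = 0.061, 0.153, 0.0682 and 0.126). In DM Slc38a2 differed by -0.05 ± 0.043 (adjusted p = 0.457). Slc1a4 and Slc1a5, both carriers of neutral amino acids, passed in neither medium, at 0.05 and 0.16 in GM and -0.13 and 0.08 in DM. Slc1a5 passed in GM after removal of the GC and length trend (adjusted p = 0.0249).

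Of the tRNA synthetases, which load amino acids onto tRNA, and the tRNA exporter Xpot, 4 of 9 rose in GM (9.76% of all tested genes) and 4 of 9 in DM (12.6% of all tested genes). None of the 9 passed as lower in either medium (0 in GM and 0 in DM at an unadjusted p under 0.05, and 0 and 0 by DESeq2), where 11% of all tested genes fell in GM and 13.8% in DM. All 9 had a positive log2 fold change in GM. Nars, for asparagine, had 208, 196 and 185 CPM in GM-AA, against 155, 149 and 151 CPM in GM-PBS. In differentiation medium it had 143, 145 and 158 CPM in DM-AA, against 114, 126 and 123 CPM in DM-PBS. The AA libraries lay above the PBS libraries in both media. Nars rose by 0.37 ± 0.052 in GM (adjusted p = 2.09e-06) and 0.29 ± 0.054 in DM (adjusted p = 8.96e-05), close to the size of the Atf4 change in each.

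Aars, for alanine, had 259.8, 258 and 261 CPM in GM-AA, against 222, 222 and 221 CPM in GM-PBS. DM libraries gave 171, 169.7 and 175 CPM in DM-AA, against 157, 155 and 153 CPM in DM-PBS. The 3 libraries of each group lay close together and the groups did not overlap. Aars rose by 0.23 ± 0.043 in GM (adjusted p = 0.000195) and 0.15 ± 0.045 in DM (adjusted p = 0.015). The DM call was lost when DM-AA library 3 was left out (adjusted p = 0.0666), and after removal of the GC and length trend the DM value was 0.22. Exons of Exosc6 on the same strand cover 14.3% of Aars. Mars, for methionine, had 74.4, 77.5 and 77.5 CPM in GM-AA, against 73.7, 70.4 and 70.2 CPM in GM-PBS. In DM the levels were 63.8, 60.2 and 59.5 CPM in DM-AA, against 48.5, 49.9 and 49.9 CPM in DM-PBS. Groups did not overlap in either medium, with the GM ranges almost touching, and Mars rose in DM by 0.31 ± 0.060 (adjusted p = 0.00016) while the GM difference of 0.10 ± 0.054 did not pass (adjusted p = 0.212). Mars and Ddit3 lie on opposite strands and their exons overlap, exons of opposite-strand genes covering 1.99% of Mars and 4.73% of Ddit3.

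Iars, for isoleucine, rose by 0.19 ± 0.056 in GM (adjusted p = 0.0155) and 0.27 ± 0.059 in DM (adjusted p = 0.000645), and Sars, for serine, rose by 0.15 ± 0.051 in GM (adjusted p = 0.031). The Iars call in GM was lost when GM-AA library 1 or GM-PBS library 1 was left out (adjusted p = 0.088 and 0.094). The Sars call in GM was lost with DESeq2's Wald test (adjusted p = 0.0511), and when GM-AA library 1, GM-PBS library 1 or GM-PBS library 3 was left out (adjusted p = 0.167, 0.0548 and 0.13). Gars, Wars, Eprs and Xpot passed in neither medium, with log2 fold changes of 0.11, 0.02, 0.09 and 0.05 in GM and 0.03, -0.08, 0.04 and -0.02 in DM. Iars and Xpot each have 1 processed pseudogene of at least 95% identity.

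The difference between the AA effects, the effect in DM minus that in GM, was tested in the same model. Of the 39 genes, 1 differed upward and 1 downward (2.56% each), where 2.58% and 2.67% of all tested genes did and 5.24% in either direction. The median difference was -0.08 over the 39 genes and -0.00112 over all tested genes. Mthfd1l differed by 0.34 ± 0.085 (adjusted p = 0.0131), having fallen with AA in GM and being higher, without passing, in DM. This call was kept under all 20 alternatives run, at adjusted p from 0.00524 to 0.0492. Slc7a5 differed by -0.30 ± 0.090 (adjusted p = 0.0435), rising in GM and not passing in DM. That call was lost with DESeq2's Wald test (adjusted p = 0.114), and when GM-AA library 2, GM-AA library 3, GM-PBS library 2, GM-PBS library 3, DM-AA library 1, DM-AA library 2, DM-AA library 3, DM-PBS library 1 or DM-PBS library 2 was left out (adjusted p = 0.107, 0.0885, 0.0998, 0.151, 0.105, 0.067, 0.0628, 0.0938 and 0.112).

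For the other genes called in one medium the difference did not pass. Chac1 had the widest gap among these, -0.62 ± 0.20 (adjusted p = 0.0672), and passed with low-count genes left in the fit (adjusted p = 0.0464), and when DM-AA library 3 was left out (adjusted p = 0.0185). For Ddit3, called in neither medium, the difference was -0.37 ± 0.14 (adjusted p = 0.13) and passed when GM-AA library 3 was left out (adjusted p = 0.0348). Trib3 and Atf3, whose calls were in GM, differed by -0.38 ± 0.22 and -0.32 ± 0.20, with 95% intervals of -0.83 to 0.07 and -0.72 to 0.08 that hold 0 as well as values larger than the GM effect itself. For Atf4 the difference was -0.12 ± 0.070, with an interval of -0.27 to 0.02 (adjusted p = 0.38).

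Most of these genes also differed between the media, and mainly towards lower levels in DM. In PBS libraries 29 of the 39 genes were lower in DM than in GM and 4 were higher. These were 74.4% and 10.3%, where 27.4% of all tested genes were lower, 27% higher and 54.4% called in either direction. The median log2 fold change was -0.51 over the 39 genes and 0.01 over all tested genes. The DM-PBS libraries lay wholly below the GM-PBS libraries for 30 of the 39 genes (29.7% of all tested genes) and wholly above for 4 (29.7%). This comparison uses the PBS libraries of both AA comparisons, so their fold changes are set beside each other without a correlation.

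Atf4 mRNA itself did not pass. It averaged 274 ± 6.09 CPM in DM-PBS and 271 ± 8.21 CPM in GM-PBS, a log2 fold change of 0.01 ± 0.050 with a 95% interval of -0.09 to 0.12 (adjusted p = 0.822). Atf5, Atf3 and Ddit3 fell by 0.83 ± 0.052, 0.60 ± 0.14 and 0.62 ± 0.096 in DM, whereas Nupr1 rose by 0.60 ± 0.076, to 59.6 ± 3.95 CPM in DM-PBS, against 39.2 ± 4.81 CPM in GM-PBS. All 6 feedback and signalling genes fell, led by Trib3, which averaged 6.09 ± 0.93 CPM in DM-PBS and 14.4 ± 1.51 CPM in GM-PBS, a fall of 1.24 ± 0.15 (adjusted p = 1.97e-08).

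All 7 serine and one-carbon enzymes fell in DM, by 0.63 for Psat1 to 2.09 for Aldh1l2. Aldh1l2 averaged 31.2 ± 1.23 CPM in DM-PBS and 134 ± 5.93 CPM in GM-PBS (adjusted p = 2.00e-23), the largest fall of the 39 genes. Mthfd1l fell by 1.28 ± 0.059 (adjusted p = 5.86e-19), and Phgdh, Psph, Shmt2 and Mthfd2 fell by 0.75, 0.70, 0.91 and 0.73. Asns averaged 20.3 ± 2.07 CPM in DM-PBS and 57.7 ± 3.91 CPM in GM-PBS, a log2 fold change of -1.50 ± 0.086 (adjusted p = 2.00e-16). Of others in its group, Gpt2 rose by 0.52 ± 0.074 (adjusted p = 3.80e-07), and Aldh18a1, Pycr1 and Cth were at -0.11, 0.22 and -0.09 without passing. Aldh18a1 passed as lower in DM-PBS after removal of the GC and length trend (adjusted p = 0.0388).

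Among the transporters Slc7a1, Slc1a4, Slc3a2 and Slc1a5 fell, by 0.80, 0.57, 0.45 and 0.21. The Slc1a5 call was lost with DESeq2's Wald test (adjusted p = 0.0628), and when GM-PBS library 1, DM-PBS library 2 or DM-PBS library 3 was left out (adjusted p = 0.113, 0.0919 and 0.0541). Slc7a5, the partner of Slc3a2, did not pass at -0.04 ± 0.065 (adjusted p = 0.628). Slc6a9 rose by 0.65 ± 0.12, to 19.7 ± 2.29 CPM in DM-PBS, against 12.6 ± 2.04 CPM in GM-PBS (adjusted p = 4.25e-05). Slc38a2 rose by 0.10 ± 0.043 (adjusted p = 0.044), a call lost with low-count genes left in the fit (adjusted p = 0.0791), and when GM-PBS library 1, GM-PBS library 2, GM-PBS library 3, DM-PBS library 1, DM-PBS library 2 or DM-PBS library 3 was left out (adjusted p = 0.0786, 0.123, 0.0532, 0.0849, 0.0777 and 0.0843). Of the synthetases and Xpot, 8 of 9 fell, between 0.26 for Xpot and 0.57 for Sars, and Eprs did not pass at -0.07 ± 0.048.

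**Figure D4:**
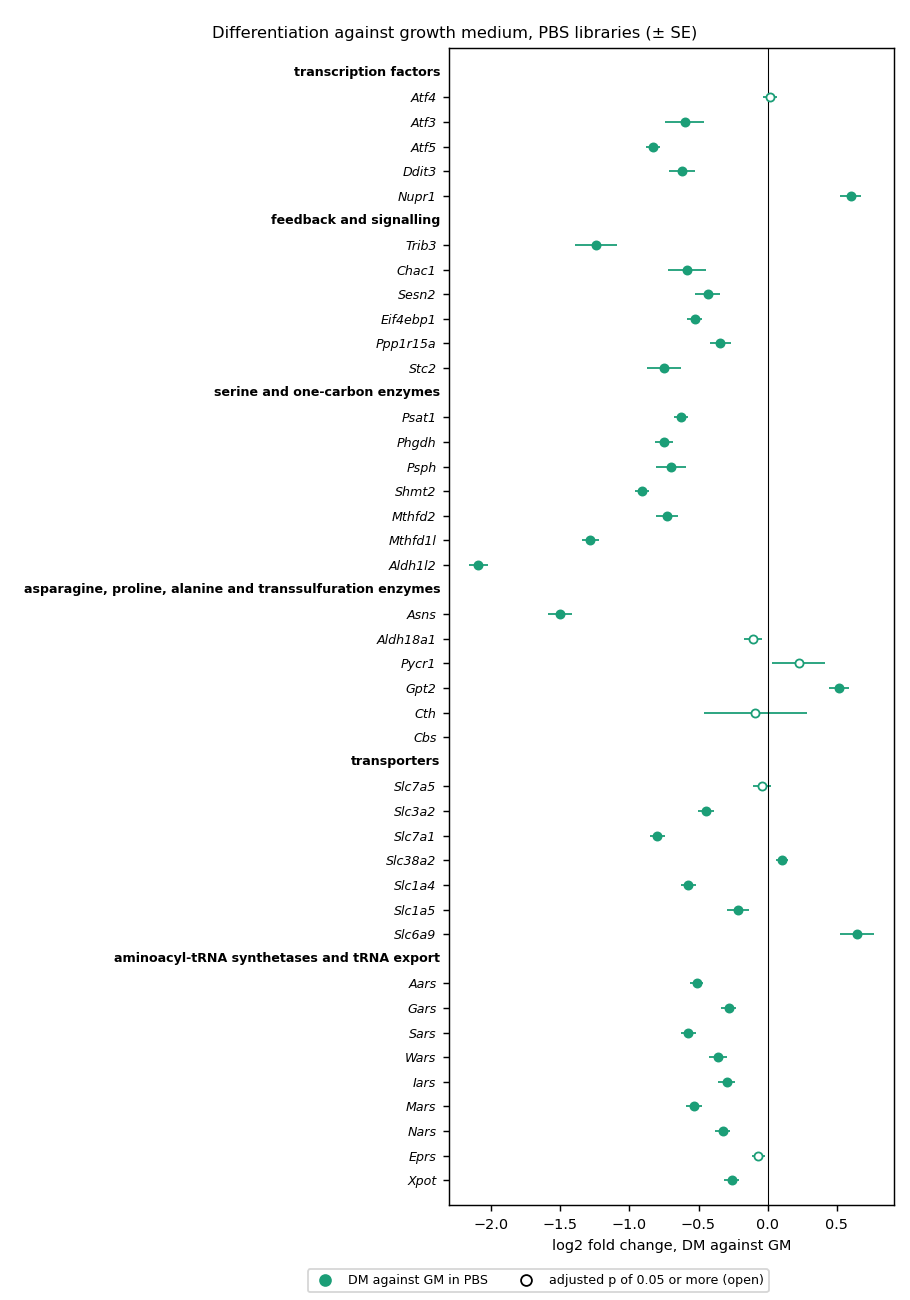
Log2 fold change ± SE between DM-PBS and GM-PBS libraries for each tested gene, grouped by role; filled points have an adjusted p under 0.05. All serine and one-carbon enzymes lie left of 0, Aldh1l2 farthest at -2.09, while Atf4 sits at 0.01.

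The AA and medium effects of single genes can be read side by side, bearing in mind that they share PBS libraries. Aldh1l2 stood at 0.31 with AA in GM, 0.24 with AA in DM and -2.09 in DM against GM. For Psat1 these log2 fold changes were 0.16, 0.22 and -0.63, and for Atf5 they were 0.32, 0.42 and -0.83. All 3 comparisons passed for each of these genes. Gpt2 was higher in all of them, at 0.25, 0.45 and 0.52. Eif4ebp1 was lower in all of them, at -0.22, -0.30 and -0.53. Slc6a9 was lower with AA, at -0.43 and -0.75, and higher in DM, at 0.65.

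Levels between genes were compared on the deposited RPKM scale, which divides by gene length. In GM-PBS the highest mean RPKM levels were those of Eif4ebp1 at 149 ± 9.82, Atf4 at 99.8 ± 3.0, Slc38a2 at 90.9 ± 1.66 and Psat1 at 68.5 ± 1.59 (mean ± SD, n = 3). Atf4 and Slc38a2 did not overlap, at 97.4 to 103 and 89.5 to 92.7 RPKM. In DM-PBS the first 3 were Eif4ebp1 at 105 ± 7.87, Atf4 at 103 ± 1.9 and Slc38a2 at 99.3 ± 0.838, of which Eif4ebp1 and Atf4 overlapped between libraries. In the AA libraries Atf4 was the highest of the 40, at 133 ± 8.54 RPKM in GM-AA and 125 ± 5.59 in DM-AA, and Eif4ebp1 had 129 ± 7.68 in GM-AA and 86.1 ± 4.3 in DM-AA. These 2 genes overlapped between GM-AA libraries, at 123 to 138 RPKM for Atf4 and 120.2 to 135 for Eif4ebp1. The lowest in GM-PBS were Slc6a9 at 2.44 ± 0.396, Pycr1 at 1.14 ± 0.312, Cth at 0.391 ± 0.0316 and Cbs at 0.0715 ± 0.0725 RPKM, so the transsulfuration enzymes were scarce beside those of serine synthesis.

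Other genes of the same pathways, on lists that leave out the 40, were read from the same fit. Some stand on several lists. For example, Slc38a1 is counted with ATF4 targets and transporters, and Cars, Lars, Tars and Yars with ATF4 targets and synthetases. The list counts are therefore not separate from each other. Of all tested genes, 9.76% rose and 11% fell with AA in GM, and 12.6% rose and 13.8% fell in DM. Between media 27.4% of all tested genes were lower in DM-PBS and 27% higher. Of 20 tested genes on a list of other reported ATF4 targets, 8 rose and 2 fell with AA in GM, and 6 rose and 5 fell in DM. The GM count that rose was 5 without GM-PBS library 2 and 4 without GM-PBS library 3. Slc38a1, or SNAT1, a glutamine carrier, rose by 0.37 ± 0.046 in GM (adjusted p = 2.08e-07) and 0.37 ± 0.049 in DM (adjusted p = 3.07e-07). Vegfa, the angiogenic growth factor, fell by 0.34 ± 0.050 in GM (adjusted p = 4.60e-06) and 0.29 ± 0.053 in DM (adjusted p = 7.27e-05). Ddit4, or REDD1, an mTORC1 inhibitor, fell by 0.32 ± 0.052 in GM (adjusted p = 2.31e-05) and 0.15 ± 0.053 in DM (adjusted p = 0.0296), the DM call being lost with totals of assigned reads as the only scaling, with DESeq2's Wald test and after removal of the GC and length trend (adjusted p = 0.0732, 0.0837 and 0.36), and when DM-AA library 3, DM-PBS library 1 or DM-PBS library 2 was left out (adjusted p = 0.174, 0.0919 and 0.104). Map1lc3b, of autophagosomes, fell in DM by 0.25 ± 0.049 (adjusted p = 0.000149).

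Of 16 genes for other cytosolic tRNA synthetases or their partner proteins (Aimp1, Aimp2 and Eef1e1), 3 rose and 1 fell in GM. In DM 6 rose and none passed as lower (0 at an unadjusted p under 0.05, and 0 by DESeq2). The GM count that rose was 1 without GM-AA library 1 or GM-PBS library 3, and the DM count was 2 without DM-AA library 3, DM-PBS library 1 or DM-PBS library 3 and 3 without DM-AA library 2. Cars, for cysteine, rose by 0.30 ± 0.077 in GM (adjusted p = 0.00519) and 0.31 ± 0.088 in DM (adjusted p = 0.00804). Vars, for valine, fell in GM by 0.20 ± 0.054 (adjusted p = 0.00714) and differed by 0.09 ± 0.057 in DM (adjusted p = 0.28), and its GM call was lost after removal of the GC and length trend (adjusted p = 0.0885), and when GM-PBS library 1 was left out (adjusted p = 0.155). None of 17 mitochondrial synthetases passed in either medium; at an unadjusted p under 0.05, 2 were higher and 0 lower in GM, 1 was higher and 2 lower in DM, and DESeq2 called 0 in GM and 0 in DM. In DM-PBS against GM-PBS 9 of the 16 genes on the cytosolic list fell and 1 rose, and 6 of the 17 mitochondrial synthetases fell and 2 rose.

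Of 18 tested enzymes and carriers (Sfxn1 and Slc25a32) of the wider serine, folate and methionine cycles, 3 rose and 1 fell in GM. In DM 4 rose and none passed as lower (1 at an unadjusted p under 0.05, and 0 by DESeq2). The carrier gene Sfxn1 was among those that rose in GM, a call lost when GM-PBS library 1 was left out (adjusted p = 0.0589). The GM count that rose was 1 without GM-PBS library 1, and the DM count was 2 without DM-AA library 3 and 1 without DM-PBS library 3. Mat2a, which makes S-adenosylmethionine, rose by 0.23 ± 0.047 in GM (adjusted p = 0.000425) and 0.28 ± 0.047 in DM (adjusted p = 2.67e-05); an opposite-strand gene, Particl, covers 11.3% of its exons, and it has 1 near-identical copy. Between media, 5 of the 18 fell and 4 rose in DM, beside the 7 of 7 that fell in the ATF4-linked group above. The difference between these 2 lists was not tested.

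Of 16 tested amino acid transporters outside the 40, 4 rose and 1 fell in GM, and 3 rose and 2 fell in DM. The GM count that rose was 2 without GM-AA library 3. Slc1a3, or GLAST, a glutamate carrier, averaged 5.49 ± 0.336 CPM in GM-AA and 10.7 ± 1.1 CPM in GM-PBS, and 5.54 ± 1.13 CPM in DM-AA and 20.4 ± 1.77 CPM in DM-PBS. It fell by 0.96 ± 0.15 in GM (adjusted p = 1.91e-05) and 1.87 ± 0.14 in DM (adjusted p = 1.00e-12), and the effects differed by -0.91 ± 0.21 (adjusted p = 0.00692). Slc38a7, a lysosomal glutamine carrier, rose in GM by 0.42 ± 0.053 (adjusted p = 4.49e-07) and not past the test in DM, at 0.04 ± 0.058, and these effects differed by -0.38 ± 0.079 (adjusted p = 0.00205).

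Of 11 tested bZIP partners of ATF4, 2 rose and 4 fell in GM, and 1 rose and 3 fell in DM. Cebpd, a C/EBP factor, averaged 59.2 ± 4.22 CPM in GM-AA and 93.2 ± 2.11 CPM in GM-PBS, and 11.2 ± 0.571 CPM in DM-AA and 32.4 ± 1.6 CPM in DM-PBS. It fell by 0.65 ± 0.059 in GM (adjusted p = 4.24e-10) and 1.52 ± 0.095 in DM (adjusted p = 4.90e-14), and the effects differed by -0.87 ± 0.11 (adjusted p = 6.80e-06). Cebpa fell by 0.48 ± 0.13 in GM (adjusted p = 0.00662) and 0.85 ± 0.11 in DM (adjusted p = 4.40e-07), the GM call being lost when GM-AA library 2 or GM-PBS library 1 was left out (adjusted p = 0.0583 and 0.082). Exons of Spidr on the opposite strand cover 15.0% of Cebpd. Cebpb and Cebpg, further C/EBP factors on the list, were named after their values were seen. Cebpb, of which opposite-strand exons of Tmem189 cover 20.7%, averaged 9.13 ± 3.44 CPM in DM-AA and 30.9 ± 22.6 CPM in DM-PBS. It fell in DM, with a log2 fold change of -1.75 ± 0.34 (adjusted p = 0.000178) that was -1.02 without DM-PBS library 2 (adjusted p = 0.00909), and its GM value of -0.34 ± 0.29 did not pass (adjusted p = 0.439). With low-count genes left in the fit the GM value passed as lower (adjusted p = 0.00377). The Cebpb effects differed by -1.40 without passing (adjusted p = 0.0675). That difference passed under several alternatives, such as removal of the GC and length trend (adjusted p = 0.0371), and was -0.68 without DM-PBS library 2 (adjusted p = 0.351). Cebpg rose in GM by 0.23 ± 0.062 (adjusted p = 0.00741), averaging 74.6 ± 0.791 CPM in GM-AA and 63.8 ± 5.07 CPM in GM-PBS, and its DM value of 0.13 ± 0.065 did not pass (adjusted p = 0.156). Its GM call was lost when GM-PBS library 1 was left out (adjusted p = 0.0691).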

How the data were processed

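Per the labels' protocols, RNA was extracted with TRIZOL and libraries were made by standard Illumina protocols. The submitters' processing notes name BWA 0.5.9-r16 and mm9; how reads were counted, with which annotation and strand, and what was done with multiply mapping reads is not given in the sources used here. As deposited, 1 table gives raw read counts per gene, and RPKM made by the authors, per the file headers; RPKM equalled counts over length and 1 divisor per library within 0.0005%, and the gene counts summed to 63.2% to 64.9% of it. No column was left unmatched (0).

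Counts were fitted with edgeR 4.0.16 (R 4.3.3): filterByExpr by group, TMM, 1 mean for each of 4 groups over all 12 libraries, glmQLFit and glmQLFTest (two-sided, 8 residual degrees of freedom), Benjamini-Hochberg over the 12230 tested genes. The script was tested on simulated data. RPKM served for levels between genes. Total counts of 7959519 to 9893564 per library, with a median SE of 0.08 on the log2 scale, set the precision. Alternatives covered scaling, the filter, DESeq2 1.42.0, the groups in the fit, left-out libraries, a replicate block, and a GC and length offset (mgcv 1.9.3). GC content, exon overlaps and copies came from GENCODE M21 on GRCm38; GC content was found for 99.3% of tested genes.

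The 40 genes, the other gene lists and the tests were chosen with earlier results of these data known. Values of every library are given for Atf4, Ddit3, Trib3, Asns, Sesn2 and Chac1 and, in each role, for up to 3 further genes with the smallest p in either AA comparison; from each other list up to 4 genes past the test with the smallest p could be named. The other-list genes were put through the same alternatives, a choice made after seeing the data.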

Additional observations from a re-analysis of the deposited data

Results flagged for a closer look

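Both results here were marked because the effect of AA differed between the media by a direct test of that difference in the edgeR model. Mthfd1l, of mitochondrial folate metabolism, had an AA effect in DM minus that in GM of 0.34 ± 0.085 (adjusted p = 0.0131). It averaged 42.2 ± 1.04 CPM in DM-AA and 39.3 ± 1.81 CPM in DM-PBS, and 81.2 ± 2.42 CPM in GM-AA and 95.7 ± 3.12 CPM in GM-PBS (mean ± SD, n = 3), with 3 of 3 AA libraries above the PBS libraries in DM and 3 of 3 below in GM. Of all tested genes, 19.9% lay wholly above in DM and 17.6% wholly below in GM. The Mthfd1l difference in DM alone did not pass in edgeR (adjusted p = 0.284), the closest libraries being at 41.5 CPM in DM-AA and 41.3 CPM in DM-PBS. Slc7a5, the leucine transporter, had a difference of -0.30 ± 0.090 (adjusted p = 0.0435). It averaged 63.2 ± 2.12 CPM in DM-AA and 59.8 ± 2.42 CPM in DM-PBS, and 79.9 ± 3.57 CPM in GM-AA and 61.5 ± 5.62 CPM in GM-PBS, with 3 of 3 AA libraries above the PBS libraries in GM (as for 16.4% of all tested genes) and overlap in DM. Its call was lost under 11 of 20 alternatives, the replicate block among them, at adjusted p of up to 0.151. No reason for either difference was tested.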

How the results depend on the processing

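No gene among the 39 called under an alternative had the opposite sign to its call in the main analysis. Of 20 calls with AA in GM, 8 were kept under every alternative run and 12 were lost under at least 1; of 14 in DM, 9 were kept and 5 lost; of 33 between media, 31 were kept and 2 lost. Counts that moved by over 1.5 times, with the cause not tested, were these. Leaving out 1 library gave 9 to 15 genes higher and 2 to 3 lower in GM. With the GC and length trend removed, alone or with the replicate block, 4 genes were lower in DM. Genes whose AA effect was lower in DM than in GM numbered 2 with no low-count filter, 0 with DESeq2 and 0 with the replicate block, and 0 to 1 with 1 library left out. Over the other gene lists together, 12 genes in place of 19 were higher in GM with DESeq2, and genes whose AA effect was higher in DM numbered 1 to 3 with 1 library left out. Of 672 counts of single lists, 587 stayed within 1.5 times and 85 did not, 78 of these with a count of 4 or fewer. Same-numbered libraries of the compared groups deviated with correlations of -0.0280 to 0.0240 across genes, so the numbers did not pair them, and not every library correlated best with its own number. With the replicate block, 15 genes rose and 4 fell in GM, 11 rose and 2 fell in DM, 3 were higher and 29 lower between media, and 1 differed upward between the AA effects. Among the 39 genes it ended the calls of Chac1 in GM (adjusted p = 0.0518), Slc7a1 in DM (0.0556), Slc38a2 between media (0.0529) and Slc7a5 for the difference between the AA effects (0.0577). Outside the 39, Cebpb, named after its values were seen, was at 0.15 between media and at -0.58 without DM-PBS library 2, leaving out 1 library giving -0.58 to 0.48. Under the scaling alternatives the median of all genes was at most 0.03. Cbs and Cth had few reads, 28 and 120 summed over the 12 libraries, which limited what could be seen for them.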

Other observations

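The 2 pathways that lead into or run beside ATF4 were read as lists of their own. Of all tested genes, 9.76% rose and 11% fell with AA in GM, and 12.6% rose and 13.8% fell in DM. Between media 27.4% of all tested genes were lower in DM-PBS and 27% higher. A list of 15 genes held the eIF2 kinases, the GCN2 regulators Gcn1l1 and Impact, eIF2, its exchange factor eIF2B and the phosphatase subunit Ppp1r15b. Of these 15, 3 rose and 1 fell with AA in GM, and 3 rose and 1 fell in DM. Between media 3 were higher and 5 lower in DM-PBS than in GM-PBS. The counts that rose were 1 without GM-AA library 1 or GM-PBS library 1 in GM, and 1 without DM-AA library 2 or DM-PBS library 1 in DM; 3 were lower between media without GM-PBS library 1. Impact, an inhibitor of the kinase GCN2, averaged 125 ± 5.85 CPM in GM-AA and 99 ± 2.36 CPM in GM-PBS, and 90.2 ± 1.96 CPM in DM-AA and 97.7 ± 1.59 CPM in DM-PBS (mean ± SD, n = 3). It rose in GM by 0.33 ± 0.050 (adjusted p = 6.89e-06) and was at -0.11 ± 0.052 in DM (adjusted p = 0.104), and the effects differed by -0.45 ± 0.072 (adjusted p = 0.000119). With the GC and length trend removed, Impact passed as lower in DM (adjusted p = 0.00522). Eif2b2, a subunit of eIF2B, fell in GM by 0.32 ± 0.067 (adjusted p = 0.000588) and was at -0.08 ± 0.065 in DM.

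Of 20 genes of the endoplasmic reticulum chaperone arm of the unfolded protein response, which ATF6 and XBP1 drive, 2 rose and 3 fell with AA in GM, and 4 rose in DM with none past the test as lower (1 at an unadjusted p under 0.05, and 0 by DESeq2). The genes that rose in GM were Dnajc3 and Xbp1, the last named after its values were seen; DESeq2 called 0 higher and 3 lower there. The Dnajc3 call was lost with DESeq2's Wald test and after removal of the GC and length trend (adjusted p = 0.0646 and 0.134), and when GM-AA library 3, GM-PBS library 1 or GM-PBS library 2 was left out (adjusted p = 0.0813, 0.0929 and 0.0805), and the Xbp1 call with DESeq2's Wald test (adjusted p = 0.056), and when GM-AA library 1, GM-AA library 3 or GM-PBS library 1 was left out (adjusted p = 0.0755, 0.0952 and 0.127). Edem1, which takes misfolded glycoproteins to degradation, rose in DM by 0.24 ± 0.053 (adjusted p = 0.000839), and Manf, a secreted chaperone-associated factor, by 0.26 ± 0.057 (adjusted p = 0.000892). In GM Edem1 was at 0.05 ± 0.054 and Manf at 0.08 ± 0.054, neither past the test. Pdia4, a disulfide isomerase, fell in GM by 0.23 ± 0.047 (adjusted p = 0.000413). Between media 13 of the 20 were lower and 2 higher in DM-PBS than in GM-PBS, with a median log2 fold change of -0.26, beside 0.01 over all tested genes.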
